A study of Homo sapiens with 6 samples.

Results

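The TGF-beta ligands, their receptors and the proteins that keep the ligands latent were measured in pLUM and pLB, a luminal and a luminobasal line grown from the same parental breast cancer cells. The group held 10 genes, namely TGFB1, TGFB2, TGFB3, TGFBR1, TGFBR2, TGFBR3, LTBP1, LTBP2, LTBP3 and LTBP4, taken by gene name from the arrays with every probe that carried one of these names. They had 14 probes of the 34127 gene probes on the array, and 12 of these probes, in 9 genes, were bright enough on at least 3 of 6 arrays to be tested. TGFB1, TGFB2, TGFBR2 and TGFBR3 were higher in pLB, as was LTBP1 on 1 of its 2 probes, and TGFB3 and TGFBR1 were lower. LTBP3 and LTBP4 did not pass the test, and LTBP2 was too dim to be tested. With another background correction, the differences of TGFB2, TGFBR1, TGFBR3 and LTBP1 no longer passed.

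TGF-beta is secreted as an inactive complex. A furin-like protease cuts the precursor, but the propeptide stays wrapped around the ligand and is tethered to a latent TGF-beta binding protein (LTBP), which places the complex in the matrix until integrins or proteases release the ligand. The free ligand is bound by the type II receptor TGFBR2, in part by way of the coreceptor TGFBR3 (betaglycan), and TGFBR2 then activates the kinase TGFBR1, which phosphorylates SMAD2 and SMAD3. In mammary epithelium the pathway is known for restraining growth and, in carcinoma cells, for loss of epithelial traits.

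Both lines came from T47Dco, a subline of the hormone-responsive human breast cancer line T47D, grown as xenografts in ovariectomized NSG mice, which lack functional lymphocytes. pLUM (CLD3+CD49f-) came from a tumor of an estradiol (E) treated mouse and was cultured for about 2 months in 1 nM E, sorted, cultured for about 2 months more and sorted again, whereas pLB (CLD3-CD49f+) came from a tumor of a mouse given E and progesterone and was cultured estrogen withdrawn (EWD) for about 2.5 and then 2 months. For the arrays, pLUM had received 1 nM E for 72 h and pLB was EWD, both in medium with 5% charcoal-stripped serum, so that line and hormone coincided on all 6 arrays and their effects cannot be told apart. Each line is 1 isolate, the 3 replicates of each are separate sorts of it, and p-values therefore measure the spread between sorts. Cells were sorted by CK5 stain before RNA was extracted, and the sources used here do not state which fraction was hybridized.

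The signal of a probe is given throughout as log2 of its intensity over the 75th percentile of that array, and is compared only with the same probe on other arrays. A gene is represented by its brightest probe unless a further probe is named. A probe was called when the lines differed by at least 2-fold with an adjusted p under 0.05 in limma, the p-values being adjusted over all 23105 tested probes. By this rule 45.6% of tested probes (21.9% higher and 23.7% lower in pLB) and 45.7% of 17670 tested genes were called, 22.7% of genes higher and 23% lower, and 68.1% of probes had no overlap between lines. Where no array of a line measured a probe well above background, its fold is a lower bound, taken against the lowest well measured signal of each array, which lay between -5.70 and -4.75. The adjusted p beside such a bound is from limma after signals under that level were raised to it. The labels held against marker genes, since 5 of 5 pLB markers, including KRT5 and EGFR, were higher in pLB, and 6 of 6 pLUM markers, including CLDN3 and PGR, were lower. Slide 1 carried pLB replicate 1 beside all pLUM arrays, and slide 2 the other pLB replicates. An exact permutation test of 3 against 3 arrays cannot give a two-sided p below 0.1, so the tests rest on the fit across all probes. These are bulk samples, in which less RNA per cell and fewer cells of a kind cannot be told apart.

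The probes are 60 bases long, and those shown here are the ones for which the stretch that is read bears on the value. The TGFB1 probe lies in the stretch that encodes the mature ligand, and its ends are 9661 bases apart on the minus strand (hg19, chr19:41838142-41847802), so that the probe spans at least 1 intron and matches spliced RNA. The same is true of the LTBP3 probe with the brighter signal, whose ends are 148 bases apart (chr11:65306896-65307043, minus strand). The LTBP1 and LTBP4 probes shown next (chr2:33590413-33590472 and chr19:41125304-41125363, both plus strand) gave values that went against a further probe of the same gene. The 4 sequences are given 5′ to 3′ as they were spotted.
TGFB1: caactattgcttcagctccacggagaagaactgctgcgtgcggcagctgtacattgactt
LTBP3: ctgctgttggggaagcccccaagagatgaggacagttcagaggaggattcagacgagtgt
LTBP1: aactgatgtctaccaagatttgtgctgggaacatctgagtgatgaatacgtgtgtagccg
LTBP4: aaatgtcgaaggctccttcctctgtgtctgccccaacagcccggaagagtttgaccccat

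The 3 ligands did not move together. TGFB1 and TGFB2 rose in pLB and TGFB3 fell. TGFB1, the most widely expressed isoform of the family, had signals of -4.04, -4.01 and -3.45 in pLUM and of -0.27, -0.25 and -0.84 in pLB. The 3 pLB arrays lay far above the 3 pLUM arrays, and pLB replicate 3 was the lowest of its line. The difference was 10.4-fold (log2 fold change 3.38, 95% confidence interval 2.80 to 3.96, adjusted p = 2.71e-05 by limma). This probe was spotted 10 times per array and was well above background on all 6. Normexp background correction was run with an offset of 50 added to the intensities, which compresses dim signals. With it, TGFB1 was 3.73-fold higher and still called. For dim probes, a call lost under this correction cannot show that a difference is absent, because an offset shrinks it. Offset and background correction were not varied separately, so their parts in a lost call cannot be told apart.

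TGFB2, which shares the receptors of TGFB1 but depends more on betaglycan for binding, had signals of -5.77, -5.56 and -5.31 in pLUM, none well above background, and of -3.72, -3.52 and -3.42 in pLB. Its probe lies on hg19 chr1:218614784-218614843. The lines did not overlap, and TGFB2 was at least 3.44-fold higher in pLB (adjusted p = 5.49e-05 by limma). The background-corrected intensities behind these values were low, at 8.68 to 14.3 in pLUM and 42.1 to 65.9 in pLB. With normexp correction the log2 fold change of TGFB2 was 0.08 (adjusted p = 0.875 by limma) and the call was lost.

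TGFB3, the third isoform, went the other way. Its probe on hg19 chr14:76424904-76424963 (minus strand) read 0.03, 0.23 and 0.67 in pLUM and -2.50, -2.63 and -2.48 in pLB. The pLB arrays were close to each other, and all were below the lowest pLUM array. TGFB3 was 7.18-fold lower in pLB (log2 fold change -2.84, 95% confidence interval -3.33 to -2.36, limma adjusted p = 2.46e-05). On slide 1 alone, where pLB replicate 1 stood against the 3 pLUM arrays, the log2 differences were 3.56 for TGFB1, 1.83 for TGFB2 and -2.81 for TGFB3.

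**Figure D1:**
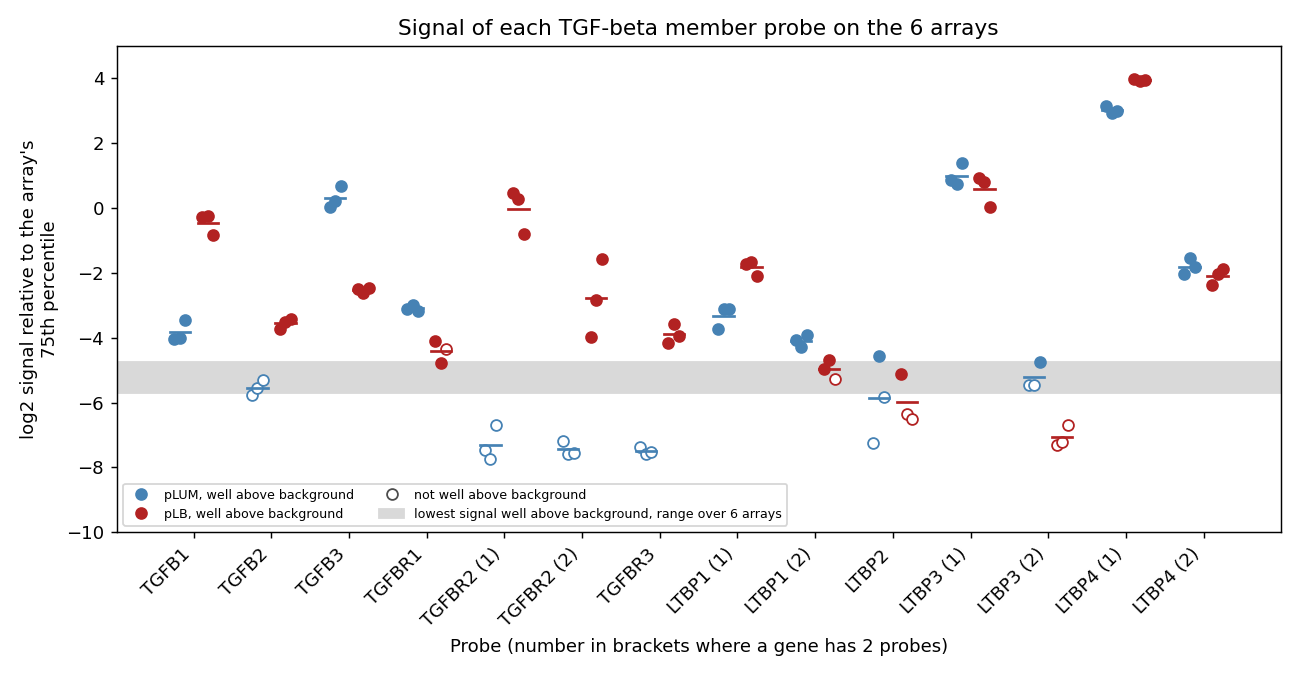
Signal of the 14 member probes on the 6 arrays, as log2 over the 75th percentile of the array, with pLUM in blue, pLB in red and a line at each mean (n = 3). Open circles were not well above background, and the grey band is the range over arrays of the lowest signal that was; TGFBR2, TGFBR3 and TGFB2 are open in pLUM and filled in pLB, and TGFB3 is lower in pLB.

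The 3 receptors also split. TGFBR2, the type II receptor that binds the ligand, showed the largest difference of the 9 tested genes. Its probe on hg19 chr3:30735163-30735222 read -7.47, -7.75 and -6.68 in pLUM and 0.46, 0.28 and -0.81 in pLB. In background-corrected intensity it was 2.60 to 5.53 in pLUM, under the lowest well measured intensity of those arrays (12.4 to 13), and 255 to 1197 in pLB. TGFBR2 was at least 40.9-fold higher in pLB (adjusted p = 6.58e-06 by limma). Of all tested genes, 2.8% were called with a fitted difference of 32-fold or more in either direction. With normexp correction the log2 fold change was 2.88 and the call held.

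A second TGFBR2 probe, assigned in the files to another transcript (chr3:30703057-30703116), was likewise dim on the 3 pLUM arrays, at -7.19, -7.59 and -7.56. In pLB it read -3.97, -2.83 and -1.56, and was at least 6.02-fold higher (adjusted p = 0.00333 by limma). The pLB arrays ran in opposite order on these probes, replicate 3 being the lowest on the first and the highest on the second. The second call was lost with normexp correction, with a log2 fold change of 0.80.

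TGFBR1, the type I receptor kinase that TGFBR2 activates, had signals of -3.12, -2.98 and -3.17 in pLUM and of -4.10, -4.76 and -4.35 in pLB (hg19 chr9:101916322-101916381). It was well above background on 2 of 3 pLB arrays and did not overlap between lines. TGFBR1 was 2.48-fold lower in pLB, with a confidence interval of 1.76-fold to 3.49-fold (adjusted p = 0.0012 by limma). Its direction was thus opposite to that of TGFBR2. With normexp correction the log2 fold change was -0.86 and fell short of 2-fold.

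TGFBR3, the betaglycan coreceptor, had signals of -7.36, -7.57 and -7.54 in pLUM, none well above background, and of -4.15, -3.57 and -3.94 in pLB (hg19 chr1:92148888-92148947, minus strand). The bound on its rise in pLB was 2.81-fold (adjusted p = 0.000348 by limma). The pLB intensities were 29.3 to 58.4, around the normexp offset of 50, and with normexp correction the log2 fold change was 0.20 (adjusted p = 0.716 by limma). On slide 1 alone, the log2 differences were 7.76 and 3.47 for the first and second TGFBR2 probes, 3.34 for TGFBR3 and -1.0 for TGFBR1.

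**Figure D2:**
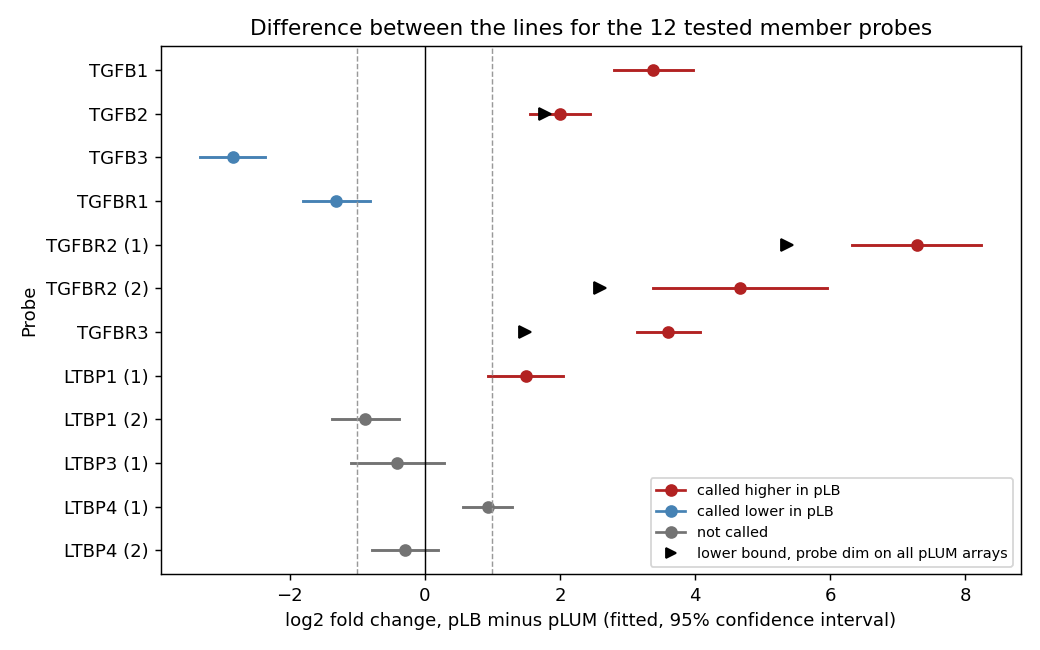
Fitted log2 fold change, pLB minus pLUM, of the 12 tested member probes with 95% confidence intervals (3 arrays per line), and the lower bound (triangle) where a probe was dim on all pLUM arrays. Dashed lines mark 2-fold; the TGFBR2 bounds lie at 5.35 and 2.59, and TGFB3 and TGFBR1 lie to the left of zero.

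LTBP1 was the only called gene of the 4 latency proteins, and for LTBP1 and LTBP4 the probes of the same gene gave opposite signs. LTBP1 binds the latent complex and anchors it to the matrix. Its brighter probe (hg19 chr2:33623836-33623895) read -3.74, -3.11 and -3.10 in pLUM and -1.73, -1.65 and -2.09 in pLB, with no overlap, and was 2.81-fold higher in pLB (adjusted p = 0.00113 by limma). The other probe, whose sequence is given above, read -4.07, -4.29 and -3.91 in pLUM and -4.97, -4.68 and -5.27 in pLB. It was lower on each pLB array than on each pLUM array, by 1.84-fold, and was not called (log2 fold change -0.88, adjusted p = 0.00798 by limma). Without pLB replicate 2 its log2 fold change was -1.03 and it was called lower. The mean of both LTBP1 probes differed by 0.30 on the log2 scale (adjusted p = 0.211 by limma), so the rise of LTBP1 rests on 1 of its 2 probes. The call on the brighter probe was also lost with normexp correction, at a log2 fold change of 0.57.

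LTBP4 differed by less than 2-fold on each of its probes. LTBP4 binds latent TGF-beta 1 and takes part in the assembly of elastic fibers. Its brighter probe (hg19 chr19:41135661-41135720) read 3.15, 2.92 and 3.0 in pLUM and 3.98, 3.93 and 3.95 in pLB, a 1.90-fold difference without overlap (adjusted p = 0.00142 by limma). With spike-in scaling the log2 fold change was 1.20 and the probe was called. Its other probe read -2.04, -1.56 and -1.82 in pLUM and -2.37, -2.04 and -1.88 in pLB, and the lines overlapped (log2 fold change -0.29, 95% confidence interval -0.78 to 0.20). Among genes that had several tested probes, the call differed between probes in 39.6%.

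LTBP3 and LTBP2 gave no call. LTBP3, which also tethers the latent complex, read 0.87, 0.73 and 1.39 in pLUM and 0.93, 0.79 and 0.04 in pLB on its brighter probe. These ranges overlapped, and the fitted log2 fold change was -0.41 with a 95% confidence interval of -1.09 to 0.28. A second LTBP3 probe (hg19 chr11:65311320-65311379, minus strand) was well above background on 1 pLUM array only, at -4.75, and was not tested. It read -5.46 and -5.45 on the other pLUM arrays and -7.31, -7.21 and -6.69 in pLB. LTBP2, a matrix protein of this family that does not bind the latent ligand, read -7.24, -4.56 and -5.82 in pLUM and -5.12, -6.34 and -6.51 in pLB (hg19 chr14:74965452-74965511, minus strand). It was well above background on 1 array of each line, and no fold is given.

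Of the 9 tested member genes, 5 were thus called higher (55.6%) and 2 lower (22.2%), against 22.7% and 23% of all tested genes. Of the 9 genes, 8 had no overlap between lines, whereas 69.1% of all tested genes had none. TGFB2, TGFBR2 and TGFBR3, 3 of those called higher, were dim on all pLUM arrays and passed the brightness filter through pLB alone. For such genes, higher values in pLB without overlap follow largely from the filter, and the shares over all tested genes hold such genes too. When each of the 6 arrays had to be well above background, 2 member genes were called higher. The median log2 fold change of the 9 genes was 1.49, also with dim signals raised to the lowest well measured one, and 0.04 over all tested genes. The 6 higher and 2 lower member probes were called in the same direction with any 1 array left out. They were also so called with slide as a block, a fit in which the difference is that of pLB replicate 1 alone from the pLUM arrays. With normexp correction 2 probes, TGFB1 and the first of TGFBR2, were called higher, and TGFB3 was called lower.

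**Figure D3:**
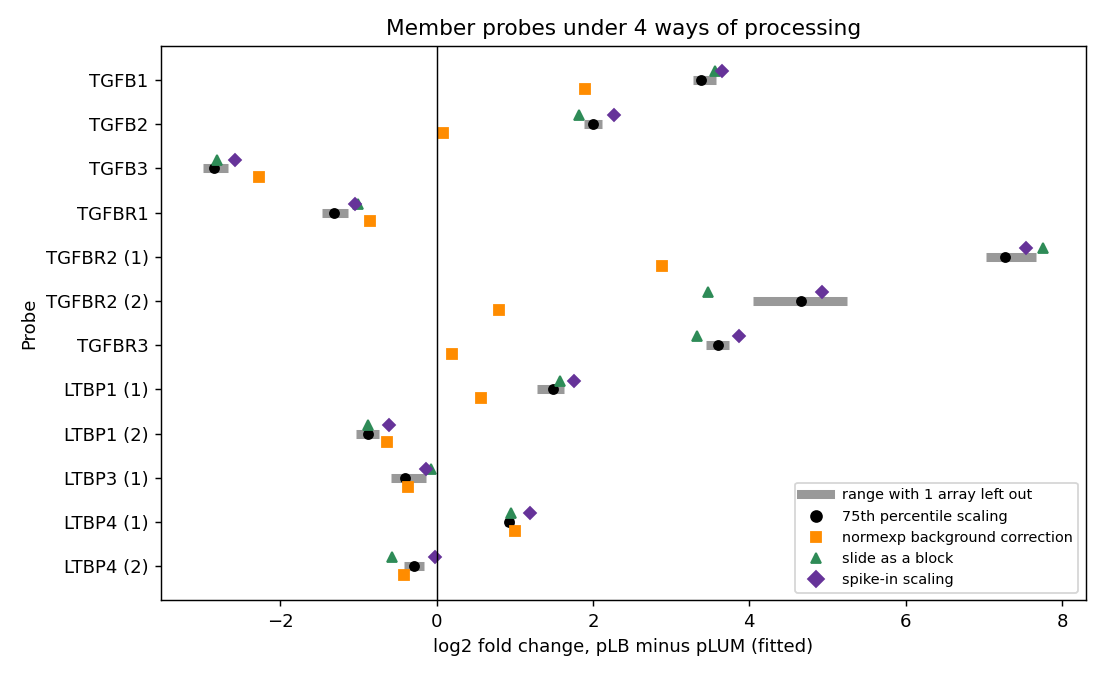
Fitted log2 fold change of the 12 tested member probes under 75th percentile scaling, normexp background correction, slide as a block and spike-in scaling, with the range over the 6 fits that left out 1 array as a grey bar. The normexp points of TGFB2, TGFBR3 and the second TGFBR2 probe lie at 0.08, 0.20 and 0.80, whereas TGFB3 stays at -2.27.

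TGFB1 and TGFB2 rose together, and their upstream sequences are shown because they differ in composition. The 250 bases before each start are from RefSeq (GRCh38.p14), TGFB1 on chr19:41353923-41354172 (minus strand) and TGFB2 on chr1:218345086-218345335 (plus strand), 5′ to 3′ along the gene. Capitals mark matches on either strand to the GC box letters GGGCGG or to the TATA box letters TATAAA, none of which overlapped.
TGFB1: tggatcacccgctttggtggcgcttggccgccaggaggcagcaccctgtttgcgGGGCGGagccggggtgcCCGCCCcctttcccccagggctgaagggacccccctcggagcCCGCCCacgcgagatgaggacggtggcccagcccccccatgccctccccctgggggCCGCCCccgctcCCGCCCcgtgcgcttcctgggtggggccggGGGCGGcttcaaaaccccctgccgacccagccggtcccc
TGFB2: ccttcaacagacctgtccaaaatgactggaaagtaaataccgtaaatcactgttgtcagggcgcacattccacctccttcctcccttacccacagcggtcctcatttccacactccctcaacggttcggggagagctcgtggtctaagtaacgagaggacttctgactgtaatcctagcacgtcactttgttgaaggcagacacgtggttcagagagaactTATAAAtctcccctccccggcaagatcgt

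The TGFB1 window held 6 GC boxes and no TATA box, with a GC content of 76.8%. The TGFB2 window held no GC box and 1 TATA box, with a GC content of 50.4%. A TGFB3 window not shown (chr14:75981996-75982245) also held no GC box and 1 TATA box, with a GC content of 49.2%. Another TGFB3 window (chr14:75983012-75983261) held neither, with a GC content of 54.8%. TGFB3 was lower in pLB. Over 35097 windows of all genes, 42.6% held a GC box and 10.7% a TATA box, and the median GC content was 58%. Neither of the windows shown held the AP-1 letters TGANTCA (6.57% of all windows), the cyclic AMP response letters TGACGTCA (1.65%) or the paired SMAD box GTCTAGAC (0.182%). The single SMAD box CAGAC, present in 38% of windows, occurred in the TGFB2 window and not in that of TGFB1. These are matches of letters and not measured sites.

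Most tested genes of a list on the latent complex and its release were called higher in pLB, a count that depended on dim signals. The list, named latent complex release, also holds genes that act at other steps, such as FURIN, which cuts the precursor. Of 14 tested genes of this list, 11 were called higher, none lower, and 3 (PCSK6, ITGAV and THBS1) were not called. Those called higher made up 78.6%, against 22.7% of all tested genes. The fitted changes of all 14 were above 0, with a median log2 fold change of 2.86, or 1.89 with dim signals raised to the lowest well measured one, so that dim genes count at their bound. With normexp correction 6 were called higher, the calls of FURIN, MMP9, BMP1, LRRC32 and TGM2 being lost, and 4 were called higher when each of the 6 arrays had to be well above background. ITGB6 and ITGB8 are integrin beta chains that pair with the alpha v chain to activate latent TGF-beta. ITGB6 was at least 23.5-fold higher, and ITGB8 was 23.9-fold higher by the fit. ITGB8 read -4.08, -4.03 and -3.77 in pLUM and 0.75, 0.69 and 0.40 in pLB. ITGAV, the alpha v chain itself, differed by 0.71 on the log2 scale and was not called (adjusted p = 0.0481 by limma), but was called with slide as a block (2.14-fold). Among the proteases, MMP14 was at least 56.5-fold higher, and PCSK5, which is related to furin, was 241-fold higher by the fit but well above background on only 1 pLUM array. FURIN, which cuts the TGF-beta precursor, was at least 3.06-fold higher. THBS1, a matrix protein that can activate latent TGF-beta, differed by 0.71 on the log2 scale and was not called.

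Among other receptors and coreceptors of the pathway, 4 of 6 tested genes were called higher (66.7%) and 1 lower (16.7%). Over all tested genes these shares were 22.7% and 23%. The median log2 fold change of the 6 was 3.96 (3.58 with dim genes at their bound), against 0.04 over all tested genes. When each of the 6 arrays had to be well above background, 2 genes of the list were called higher. NRP1 and NRP2 were dim on all pLUM arrays and passed the brightness filter through pLB alone. The neuropilins NRP1 and NRP2, coreceptors shared with semaphorins and VEGF, were at least 37.5-fold and 16.1-fold higher in pLB, and each was higher on all 3 of its probes. CD109, a membrane protein that binds TGF-beta and dampens its signal, was 37.0-fold higher. ENG (endoglin) read -4.50, -3.84 and -3.41 in pLUM and -0.57, -0.30 and -1.43 in pLB, an 8.88-fold difference. BAMBI, a pseudoreceptor that blocks the type I receptor, was 2.90-fold lower, from 3.81, 3.81 and 3.71 in pLUM to 2.28, 2.50 and 1.95 in pLB. TGFBRAP1, the remaining tested gene, did not reach 2-fold (log2 fold change 0.98), and was called without pLUM replicate 3 (2.12-fold) or without pLB replicate 1 (2.15-fold).

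The SMAD transducers moved in both directions, with 3 of 8 called higher, 4 lower and 1 not called. These shares were 37.5% higher and 50% lower, against 22.7% and 23% of all tested genes. SMAD3, a receptor-regulated SMAD, rose from -1.91, -1.98 and -2.0 in pLUM to -0.16, -0.17 and 0.24 in pLB, or 3.82-fold. SMAD2, its partner at the receptor, fell by 1.07 on the log2 scale, reading -4.15, -3.78 and -4.30 in pLUM and -4.90, -5.33 and -5.23 in pLB. SMAD4, the common partner of both, fell by 1.09, from -1.76, -1.89 and -2.42 to -3.18, -3.16 and -3.02. The SMAD2 and SMAD4 calls were close to the 2-fold limit. SMAD2 lost its call with slide as a block (log2 fold change -0.82) and without pLUM replicate 2 (-0.93) or pLB replicate 2 (-0.99), and SMAD4 without pLUM replicate 1 (-0.96). Both lost it with spike-in scaling, at -0.81 and -0.83. TRIM33, a ubiquitin ligase that acts on SMAD4, was 4.73-fold lower, and the endosomal adaptor ZFYVE16 was 3.40-fold lower. ZFYVE9, an anchor that presents SMADs to the receptor, was 3.60-fold higher on its brighter probe, and the mean of its probes (log2 fold change 0.80) was not called. DAB2, an adaptor between receptors and SMADs, was at least 4.44-fold higher. With normexp correction SMAD2, SMAD4, ZFYVE9 and DAB2 were not called, with log2 fold changes of -0.72, -0.87, 0.26 and 0.51.

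**Figure D4:**
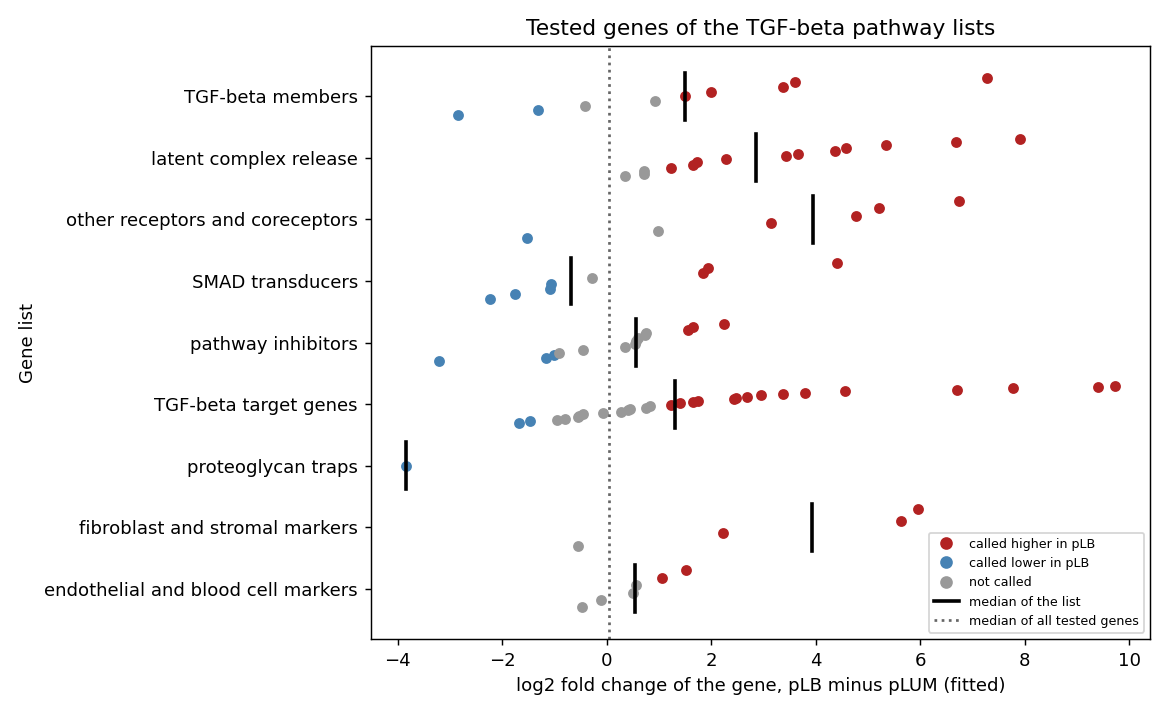
Fitted log2 fold change, pLB minus pLUM, of each tested gene by list (points, with red called higher, blue called lower and grey not called), the median of each list (black bar) and the median of all tested genes (dotted line at 0.04). The latent complex release list has a median of 2.86 and no gene called lower, and the SMAD transducers have a median of -0.68.

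Of 14 tested inhibitors of the pathway, 3 were higher, 3 lower and 8 not called. The 21.4% called in each direction were close to the 22.7% higher and 23% lower of all tested genes. SMAD7, the inhibitory SMAD induced by the pathway itself, differed by 0.76 on the log2 scale (adjusted p = 0.00921 by limma) and stayed under 2-fold. TGIF1, a corepressor of SMADs, was 4.72-fold higher on its brighter probe, and the mean of its probes (log2 fold change 0.71) was not called. PMEPA1, which sequesters receptor-regulated SMADs, was 3.13-fold higher on a probe that read 1.00, 1.05 and 1.17 in pLUM and 2.82, 2.51 and 2.82 in pLB. SKI, another corepressor, was 2.95-fold higher. LDLRAD4, which is related to PMEPA1 and is named C18orf1 on the array, was at least 2.84-fold lower. PPM1A, a phosphatase of SMADs, and NEDD4L, a ubiquitin ligase of SMADs, fell by 1.16 and 1.0 on the log2 scale. Neither was called without pLB replicate 1 (log2 fold change -0.86 for PPM1A and -0.78 for NEDD4L) or without pLB replicate 2 (-1.12 and -0.92), and PPM1A was also lost without pLUM replicate 1 (-1.06) and NEDD4L without pLUM replicate 3 (-0.96). Both were also lost with spike-in scaling (-0.89 and -0.74), and the mean of the NEDD4L probes differed by -0.11.

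Of 28 tested genes known to respond to TGF-beta, 15 were called higher (53.6%), 2 lower (7.14%) and 11 not called. Over all tested genes 22.7% were higher and 23% lower. The median log2 fold change of the 28 was 1.31 (1.05 with dim genes at their bound), against 0.04 over all tested genes. Of the 28, 5 were dim on all pLUM arrays and passed the brightness filter through pLB alone. With normexp correction 8 genes of the list were called higher, and 7 when each of the 6 arrays had to be well above background. PTHLH, the parathyroid hormone-related protein, was at least 392-fold higher, IGFBP3, a binding protein of insulin-like growth factors, at least 164-fold, and SNAI2 (Slug), a repressor of epithelial genes, at least 27.1-fold. TGFBI, a matrix protein named for its induction by TGF-beta, read -4.77, -4.07 and -4.15 in pLUM and 3.68, 3.40 and 3.25 in pLB, a 219-fold difference. TAGLN, a smooth muscle actin-binding protein, fell from 0.37, 0.08 and 0.50 to -1.35, -1.23 and -0.90, or 2.78-fold. BHLHE40, a transcriptional repressor, fell 3.18-fold. HMGA2 was not called on its brightest probe, but 2 of its 3 probes were called higher. The mean of its probes was 46.6-fold higher (adjusted p = 5.6e-07 by limma). TGFB1 itself is on this list and is counted in it, and SMAD7, SKIL and PMEPA1 are counted both here and among the inhibitors. The list is of genes that other signals also regulate, and no pathway activity was measured.

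Among proteoglycans that trap the ligand, FMOD (fibromodulin) was the only tested gene of 4, and was at least 3.87-fold lower in pLB, at -3.45, -3.29 and -3.28 in pLUM and -7.55, -7.47 and -6.53 in pLB. DCN, BGN and ASPN were not tested.

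Markers of other cells that make or answer to TGF-beta were examined, since each line was grown out of a xenograft with a mouse host. Of 12 fibroblast and stromal markers, 8, including DCN, LUM, PDGFRA and PDGFRB, were well above background on no array. Of the other 4, COL1A2, THY1 and ACTA2 were called higher in pLB and COL1A1 was not called. COL1A2 was at least 11.5-fold, THY1 at least 22.9-fold and ACTA2 4.68-fold higher. The summed signal of the 12, relative to the 75th percentile, was 0.82 to 1.02 in pLUM and 1.36 to 1.90 in pLB, and without COL1A1, the brightest of them in pLUM, 0.0712 to 0.107 in pLUM and 0.882 to 1.05 in pLB. Of 8 endothelial and blood cell markers, VWF and CD68 were called higher, 4 others were not called, and PECAM1 and KDR were well above background on no array. The VWF call was lost without pLUM replicate 3 (log2 fold change 0.85), without pLB replicate 2 (0.92) and with slide as a block (0.87). After normexp correction ACTA2, VWF and CD68 were not called. The sum of these was 0.272 to 0.42 in pLUM and 0.347 to 0.593 in pLB. The part of such cells in the member values was not tested.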

How the data were processed

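RNA of 3 sorts of pLUM and 3 of pLB was hybridized to 1-colour Agilent arrays. The intensity of each spot, as the authors deposited it, was linear scanner output (Agilent Feature Extraction, version 10.10.1.1) with background corrected inside each array and no normalization across arrays. Partek is named in the submitters' processing notes with no role. Gene names, probe sequences and positions (hg19) are those of the files.

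From these intensities, log2 values minus the log2 75th percentile of each array (449 to 869 in intensity) were computed. Controls and spots flagged as outliers (296 to 387 on an array) were dropped, and replicate spots were averaged by probe. Between 21285 and 22775 probes per array were well above background, and no gene spot was saturated. A probe was tested if at least 3 of 6 arrays measured it well above background, with lmFit and eBayes of limma 3.58.1 (R 4.3.3) with Benjamini-Hochberg adjustment, and calls required 2-fold and an adjusted p under 0.05. The number of arrays limits the precision. Tested on simulated data with 200 of 23105 probes changed for the comparison of pLB with pLUM, 79% of the changed probes (158) were recovered and 5 calls were false. In the data 45.6% of tested probes were called, a far larger share, so these rates do not carry over to the comparison itself.

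Arrays were not paired by replicate number. Alternatives were another background correction (normexp, offset 50), scaling, filter, floor, test, threshold or probe rule. Further ones were slide or replicate as a block, and leaving out each array. Besides the 10 members, the text names from each pathway list the called genes with the largest fitted change, up to 4 per direction, and ITGB6, ITGB8, THBS1, FURIN, SMAD2, SMAD3, SMAD4 and SMAD7; a further gene of this rule is not reported here. PCSK6, ITGAV, TGFBRAP1, CDKN2B, HMGA2, SKIL, MMP9, BMP1, LRRC32, TGM2, DCN, BGN, ASPN and the markers of other cells were named after their values were seen. The members and lists were chosen with earlier results of these data known.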

Additional observations from a re-analysis of the deposited data

How the results depend on the processing

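None of the 12 tested member probes changed direction under an alternative that gave it a value; LTBP2 was not tested. With normexp correction 3004 instead of 5054 of all probes were called higher in pLB, and of the members 2 probes and 2 genes were called higher and 1 lower. By the same correction 6 latent complex release genes, 1 SMAD transducer and 8 target genes were called higher, and 2 SMAD transducers lower. Probes that had to be well above background on all 6 arrays left 2 member probes and 2 member genes higher and 1 lower, 4 latent complex release genes, 2 other receptors and 7 target genes higher, and 0 proteoglycan traps lower, since probes dim in a line are then not tested. With no fold threshold 6 pathway inhibitors were higher and 5 target genes lower, and with no filter on dim probes 1 latent complex release gene was lower. Spike-in scaling left 2 SMAD transducers and 1 inhibitor lower, and the methods' t-test after adjustment left 1 inhibitor lower. With 1 array left out, 1 to 4 inhibitors were lower, namely 1 without pLB replicate 1 or without pLB replicate 2 and 4 without pLB replicate 3. CDKN2B and VWF, called higher in pLB, had log2 fold changes of -0.16 and -0.25 with normexp correction and were not called. Spike-in scaling shifted the median of all probes by 0.27 and normexp by -0.25 on the log2 scale, so that 0.27 of each member's change under spike-in scaling is shared with all probes.

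The methods' t-test (Student's, unadjusted, with a limit on p alone) passed 14213 of 23105 probes and 10 of 12 member probes. For its volcano plot of the 2 lines the paper also required a 2-fold difference. With 2-fold added, the unadjusted test passed 10130 probes and 8 member probes. After Benjamini-Hochberg adjustment with 2-fold, 9620 and 8 passed. With the replicate number as a block, 4986 probes were called higher and 5383 lower, and no call of a member or list gene changed. Arrays of the same number did not deviate together (correlations -0.265, -0.095 and -0.218, against -0.029 to 0.250 between differently numbered arrays), so the numbers were not taken as pairs. The probes of TGFB2, TGFBR2 and TGFBR3 are limited by their signal over background in pLUM.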
